A study of Mus musculus with 4 samples.

Results

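The genes described here are 37 nucleolar genes that serve ribosome biogenesis, named as a list, of which 36 were read by at least 1 probe set with that single gene symbol in the platform annotation. They are 36 of the 12393 genes so annotated on the array, and 68 of its 22626 probe sets that are not controls. Npm3 was not analysed here. RNA of mouse embryonic fibroblasts (MEFs), cells grown out of mouse embryos, was hybridised to 4 Affymetrix MOE430A arrays, 1 per sample. The 2 mTert samples carried the retroviral vector pBabePuro with mTert, the catalytic subunit of mouse telomerase, and the 2 control samples carried the same vector empty, so all 4 had received the virus. Mouse strain, embryo age, passage number and time after infection are not stated in the labels. Nor do these say that arrays of one group are separate cultures, and p-values therefore reflect the spread between these arrays alone, some of which may be technical.

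The nucleolus is where RNA polymerase I transcribes the ribosomal RNA genes and where the transcript is modified, cut and packed with proteins into the small and large ribosomal subunits. Dividing fibroblasts need this pathway to grow, and the transcription factor Myc is known to raise many of its genes by binding E-boxes, DNA elements of which CACGTG is the canonical form. Because Myc signal was lower on the mTert arrays, the comparison of mTert with control asked whether the nucleolar genes lay lower with it.

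Tert, read by 1 probe set, had signals of 1164.5 and 845.4 on mTert 1 and mTert 2, both called present, against 128.0 and 84.7 on control 1 and control 2, both called absent. Signals are in scaled arbitrary units, and the call states whether a probe set was detected above background. Between 51.6% and 54.4% of probe sets were called present on each array. The fibroblast markers were detected throughout, with 14 of 14 genes called present on all 4 arrays. Of 7 genes each of epithelial, endothelial and muscle cells, 5 were present on no array, among them Epcam, Pecam1 and Myod1. Macrophage markers were higher on the arrays numbered 2. The signals of 11 such genes summed to 3323 and 13710 on mTert 1 and mTert 2, against 3033 and 13436 on control 1 and control 2. Itgam was absent on every array. The recorded amount of labelled RNA was 15 µg on both mTert arrays, against 5 µg on control 1 and 15 µg on control 2.

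Myc had signals of 570.9 and 545.2 on mTert 1 and mTert 2, against 892.2 and 716.9 on control 1 and control 2. Both were lower in mTert than either control signal, and control 1 was the highest. The log2 difference, mTert minus control, was -0.52 with a standard error (SE) of 0.16 from limma. The limma p was 0.0154 before adjustment and 1.00 after adjustment over all 12396 tested probe sets, which are those called present on at least 2 arrays. In a bulk sample, fewer cells that express a gene and less of its RNA per cell cannot be told apart. Without control 1, the array with the smaller amount of labelled RNA, the log2 difference of Myc was -0.36. It was -0.68 without control 2, -0.55 without mTert 1 and -0.49 without mTert 2.

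The nucleolar genes had a median near 0, where Myc stood at -0.52. For each gene the brightest tested probe set was used, and 33 of the 36 genes had one. Their median log2 difference was 0.009, with quartiles of -0.027 and 0.088, beside a median of 0.008 over all 7387 genes measured in the same way. By sign, 14 members were lower and 19 higher in mTert, and they ranged from -0.21 to 0.23. None was as low as Myc, where 71 of all 7387 genes were, counting Myc. At -0.25 or lower stood 0 members and 6.44% of all genes. At 0.25 or higher stood 0 members and 7.40% of all genes. Limma called 0 of the 55 tested member probe sets at an adjusted p of 0.05, and the same holds for the background, 0.00% of all 12396. At an unadjusted p of 0.05 it had 1 of the 55 member probe sets and 261 of all. Tert, at a log2 difference of 3.25 (SE 0.26), was not called either, with a limma adjusted p of 0.188. A call of 0 therefore does not decide whether smaller differences exist.

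Each member's interval shows how closely 4 arrays fix its difference. The 95% interval of the limma fit held 0 for all 33 members. For 27 of them it lay entirely above the -0.52 of Myc, and for the other 6 it reached that value. Those were Nop58, Gnl3, Polr1e, Nolc1, Ebna1bp2 and Imp4, with the widest interval, from -0.81 to 0.61, for Imp4. The interval of Myc itself ran from -0.90 to -0.14, and these counts leave it out. Whether a member's difference departs from that of Myc was not tested.

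**Figure D1:**
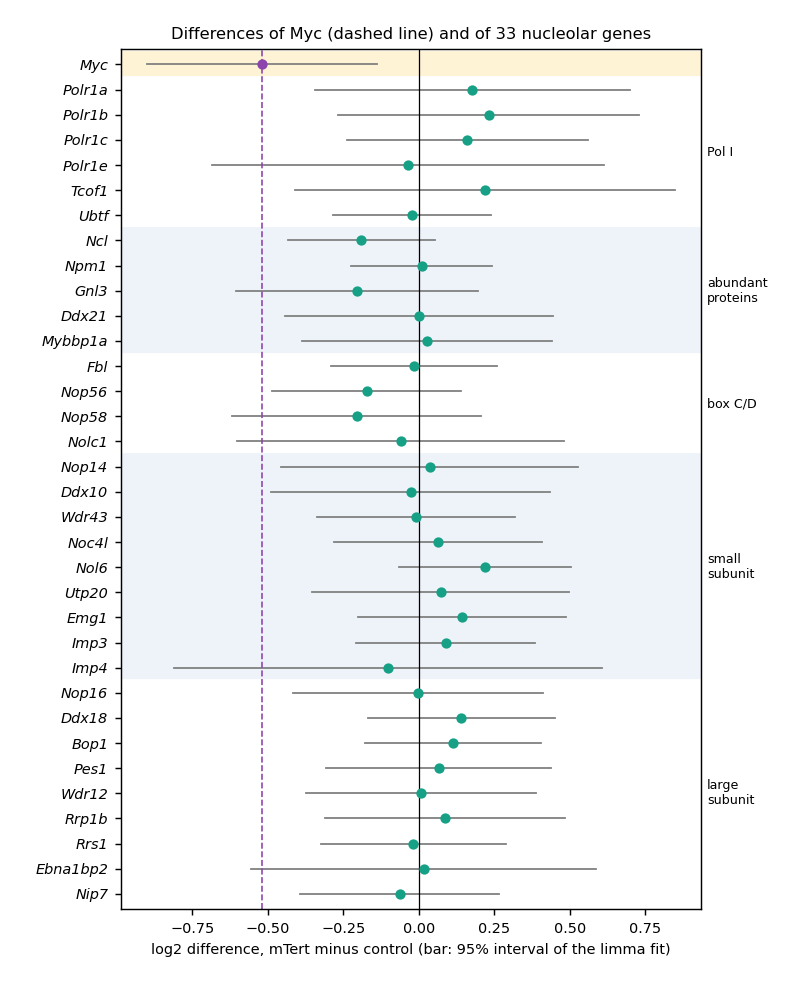
Log2 difference, mTert minus control, of Myc and of the 33 measured nucleolar genes, 1 row each, grouped by role. Points are limma estimates, bars their 95% intervals and the dashed line the -0.52 of Myc; all 33 nucleolar intervals hold 0 and 27 lie above the dashed line.

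The groups were separate in few members. The 2 mTert signals were both under the 2 control signals in 2 of 33 members, Ncl and Nop56, or 6.06%, where 11.7% of all genes did. Both lay above in 4 members, Ddx18, Bop1, Noc4l and Nol6, or 12.1%, where 13.8% of all genes did. The 4 arrays stood in the order of Myc, from mTert 2 as the lowest through mTert 1 and control 2 to control 1, in 1 member, Ncl, or 3.03%. Of all genes 3.01% stood in that order, so the members' share was at the background.

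Pairs of arrays were set beside each other to see whether 1 array hid a shift. Members had a median of 0.021 for mTert 1 against control 1, 0.031 for mTert 1 against control 2, 0.040 for mTert 2 against control 1 and 0.015 for mTert 2 against control 2. Myc in the same pairs had -0.64, -0.33, -0.71 and -0.39. Within the groups, mTert 2 minus mTert 1 was -0.07 for Myc and -0.011 for the members' median, and control 2 minus control 1 was -0.32 for Myc and -0.0003 for the members. Macrophage markers differed between the same arrays by medians of 2.17 within mTert and 2.14 within control, while the members' medians stayed near 0. Whether single members moved with these markers was not tested. The typical size of a member's difference, whatever its sign, was 0.065 between mTert and control. It was 0.184 between the 2 mTert arrays and 0.148 between the 2 control arrays, although a difference between means of 2 arrays varies less than one between single arrays. Over all genes the typical size was 0.094 between mTert and control. Between the 2 mTert arrays it was 0.166, and between the 2 control arrays 0.161.

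**Figure D2:**
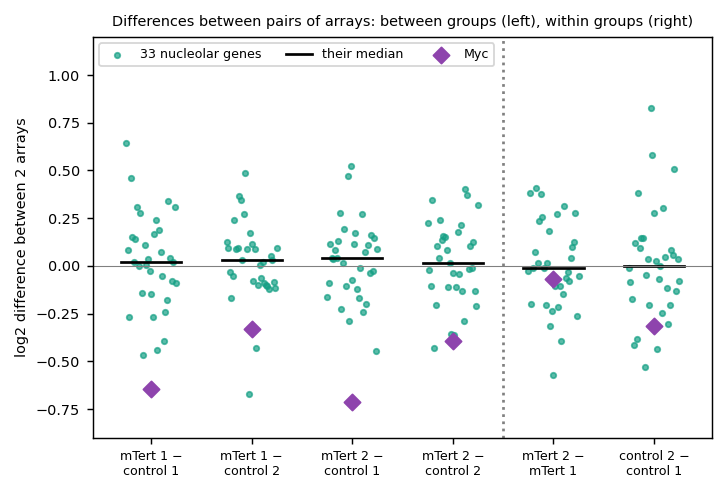
Log2 differences of the 33 nucleolar genes (dots, with their median as a bar) and of Myc (diamonds) for the 4 pairs of an mTert and a control array, left of the dotted line, and the 2 pairs within a group. The medians lie between -0.011 and 0.040, while Myc lies between -0.71 and -0.33 in the 4 pairs between groups.

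Whether the members' starts hold the Myc element was read from RefSeq promoter windows of GRCm38.p6, which run from 250 bases before to 50 bases after each gene's start. Of the 37 listed members 31 had a window in the table. CACGTG, which reads the same on both strands, occurred in 6 of the 31, or 19.4%, beside 8.09% of all 27025 genes with a window and 12.1% of the 6050 such genes that were measured here. A match is a description of the letters and not of binding, and no match says only that these letters are not in the window. The 6 matches are shown because they are the members whose windows hold the element, with up to 12 bases on each side and the element in capitals, 5′ to 3′ on the gene's strand. The first base of the element lies 121 bases before the start in Imp4 and 60 bases before it in Nop2, and at base 3 after it in Pes1, 18 in Wdr43, 38 in Utp20 and 41 in Mybbp1a, counting the start as base 1.
Imp4 (chr1:34439696-34439725, + strand): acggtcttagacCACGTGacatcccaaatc
Nop2 (chr6:125131811-125131840, + strand): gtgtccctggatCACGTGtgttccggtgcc
Pes1 (chr11:3963965-3963994, + strand): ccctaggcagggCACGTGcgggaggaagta
Wdr43 (chr17:71616220-71616249, + strand): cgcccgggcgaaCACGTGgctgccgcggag
Utp20 (chr10:88826765-88826789, - strand): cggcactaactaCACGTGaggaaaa
Mybbp1a (chr11:72441355-72441376, + strand): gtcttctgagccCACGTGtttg

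The 5 of these that were measured had log2 differences between -0.10 and 0.07, with a median of 0.027. The 22 measured members whose windows lack the element had a median of 0.003. Over all measured genes the medians were -0.004 with and 0.011 without the element. These medians lie within a few hundredths of each other on the log2 scale, and no test was made of them.

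The polymerase I group covers 4 subunits of the enzyme and 2 of its cofactors. Polr1a, the largest subunit, had signals of 372.6 and 423.4 in mTert, against 294.5 and 419.2 in control, and a log2 difference of 0.18 (SE 0.21). The single low value, control 1, sets that difference, which was -0.08 without it. Polr1b, the second-largest subunit, had 250.3 and 208.5 in mTert, against 212.1 and 178.7 in control, or 0.23 (SE 0.20), the highest of the list, and its groups overlapped. Polr1c, a subunit shared with RNA polymerase III, stood at 0.16 (SE 0.16) by its brightest and at -0.15 (SE 0.22) by its other probe set. Ubtf, the upstream binding factor that keeps ribosomal RNA genes active, was level, with 1398.5 and 1440.0 in mTert, against 1400.7 and 1481.9 in control. Tcof1, the treacle protein that assists polymerase I, had 249.4 and 168.1 in mTert, against 159.7 and 193.7 in control, or 0.22 (SE 0.26). mTert 1 was its only high value, and without that array the difference was -0.07.

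Polr1e, a further subunit of polymerase I, was dim. Its tested probe set had 127.9 and 155.2 in mTert, against 173.5 and 120.1 in control, with control 2 called absent. The other Polr1e probe set was called absent on all 4 arrays, at 19.5 and 18.8 in mTert, against 70.6 and 87.4 in control, so no fold is given for it. Both of its mTert values lay below both control values. Its lowest detection p-value, on control 1, was 0.0806.

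The abundant proteins of the nucleolus include chaperones and RNA-binding proteins. Npm1, nucleophosmin, a histone and ribosome chaperone, averaged 5621 ± 351 in mTert and 5589 ± 470 in control (SD, n = 2 each), a log2 difference of 0.01 (SE 0.10). Ncl, nucleolin, which binds ribosomal RNA and its genes, had 3571.6 and 3113.7 in mTert, against 3806.7 and 3805.9 in control. Its log2 difference was -0.19 (SE 0.10), and both mTert signals lay below both nearly equal controls. This was the member in the order of Myc. Gnl3, the nucleolar GTPase nucleostemin, had 763.2 and 1013.9 in mTert, against 1002.4 and 1027.1 in control. Only mTert 1 stood apart, so its -0.21 (SE 0.16) was -0.001 without that array. Ddx21, an RNA helicase of the nucleolus, stood at 0.00 (SE 0.18) and Mybbp1a, a Myb-binding nucleolar protein, at 0.03 (SE 0.17).

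The box C/D group covers the particle that methylates ribosomal RNA under the guidance of small nucleolar RNAs, and the assembly factor Nolc1. Its 4 measured members were all below 0 by sign in their brightest probe sets, with a median of -0.117. None of the 4 passed the test. The sign of Nolc1 turned with the probe set or array used, and that of Fbl with the array left out. Nop56, a core protein of the particle, had 663.7 and 670.3 in mTert, against 783.5 and 722.0 in control, a log2 difference of -0.17 (SE 0.13), and its groups did not overlap. The other Nop56 probe set stood at -0.03 (SE 0.19), with overlap. Nop58, the partner of Nop56, had 749.3 and 570.8 in mTert, against 776.1 and 733.0 in control. mTert 2 alone was low, and the -0.21 (SE 0.17) of Nop58 was -0.01 without that array. Fbl, fibrillarin, the methyltransferase itself, had 2040.0 and 1772.5 in mTert, against 1927.7 and 1914.8 in control, or -0.01 (SE 0.11), which was 0.09 without mTert 2. The other Fbl probe set stood at -0.08 (SE 0.11), with 1172.6 and 1129.1 in mTert, against 1265.5 and 1172.8 in control and no overlap. Nolc1, which helps small nucleolar particles assemble, stood at -0.06 (SE 0.22), and its 2 controls, 426.2 and 314.9, lay further apart than its 2 group means. The second tested probe set of Nolc1 stood at 0.18 (SE 0.18), with 222.0 and 227.7 in mTert, against 196.3 and 201.3 in control and no overlap. Nolc1 was at 0.06 as the mean of its probe sets and at 0.16 without control 1 and 0.13 without mTert 1.

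**Figure D3:**
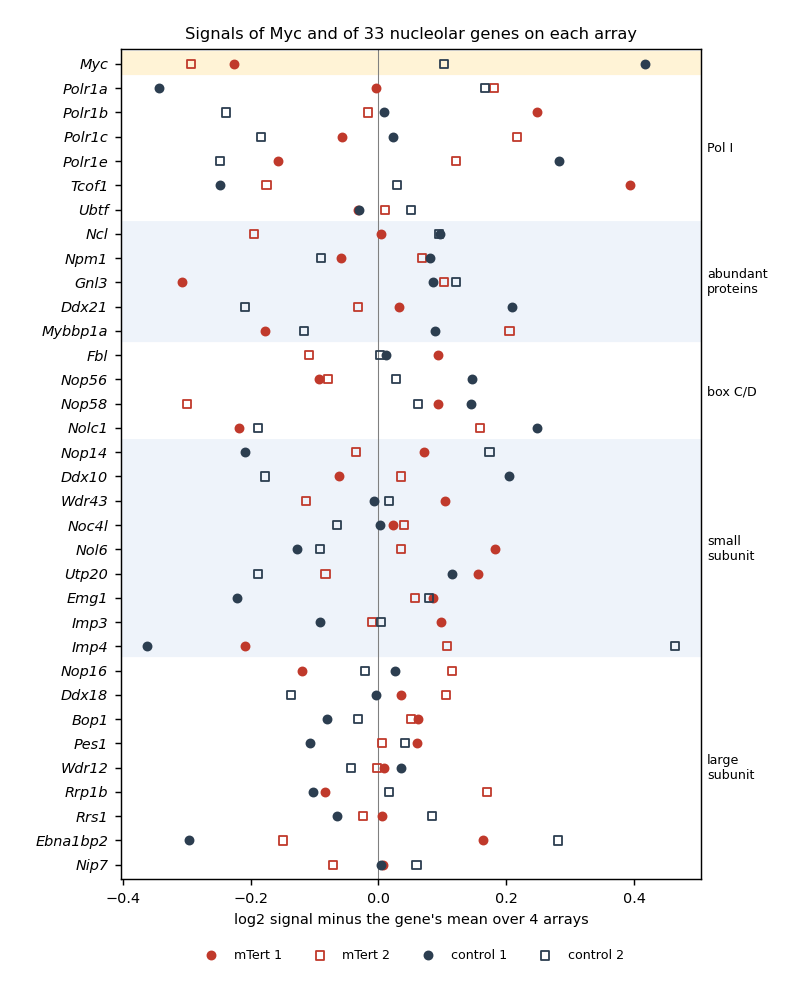
Log2 signal of Myc and of the 33 measured nucleolar genes on each array, as the deviation from the gene's mean over the 4 arrays. Filled circles are arrays numbered 1 and open squares arrays numbered 2, red for mTert and dark for control; the 2 groups separate for Myc, Ncl and Nop56 with mTert lower, and for Ddx18, Bop1, Noc4l and Nol6 with mTert higher.

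Factors of the small subunit, which bind and cut the early transcript in the processome, had a median of 0.062 over 9 measured members, 6 higher and 3 lower by sign. Nol6, a processome component, had 1375.1 and 1242.3 in mTert, against 1110.2 and 1138.1 in control, a log2 difference of 0.22 (SE 0.12). Both mTert signals lay above both controls. Noc4l, which works with Nop14, likewise separated, with 456.8 and 462.2 in mTert, against 450.3 and 430.1 in control, the last of them called absent. Its difference was 0.06 (SE 0.14). Emg1, a methyltransferase of small-subunit RNA, had 1136.6 and 1114.4 in mTert, against 918.3 and 1131.0 in control. Control 1 alone was low there, and the 0.14 (SE 0.14) of Emg1 was -0.007 without it. Imp4, a processome component that partners Imp3, had 351.3 and 437.4 in mTert, against 316.1 and 560.1 in control. Its 2 controls differed by 0.83 on the log2 scale, the widest gap within a group among the 33 brightest probe sets of the members. The remaining Imp3, Utp20, Wdr43, Nop14 and Ddx10 lay between -0.03 and 0.09.

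Factors of the large subunit had a median of 0.015 over 9 measured members. Pes1, Bop1 and Wdr12 form 1 complex needed to mature large-subunit RNA. Bop1 had 894.7 and 887.8 in mTert, against 810.7 and 838.4 in control, or 0.11 (SE 0.12), with no overlap. Pes1 had 403.2 and 388.4 in mTert, against 359.4 and 398.2 in control, or 0.07 (SE 0.15). Wdr12, by its brightest probe set, had 316.2 and 313.7 in mTert, against 322.2 and 305.2 in control, but this probe set was called present on 2 of the 4 arrays. The other tested probe set was present on all 4, at 68.6 and 54.1 in mTert, against 54.2 and 40.3 in control, or 0.38 (SE 0.35), with overlap. Wdr12 stood at 0.19 as the mean of both. Of the tested probe sets of these 3 genes, that of Bop1 alone separated the groups. Ddx18, an RNA helicase, had 834.5 and 876.3 in mTert, against 812.4 and 740.7 in control, or 0.14 (SE 0.13). Rrs1, Nip7, Nop16, Ebna1bp2 and Rrp1b, which also act in large-subunit assembly, lay between -0.06 and 0.09.

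Nop2, Ppan and Rrp9 were not tested, since each was called present on fewer than 2 arrays. Nop2, an RNA methyltransferase of the large subunit, had 367.6 and 405.6 in mTert, against 481.5 and 440.8 in control. Both mTert signals lay below both controls, but the probe set was called present on mTert 2 alone, where its detection p-value was 0.0461, and it was absent on both control arrays, so no fold is given. Ppan, a large-subunit factor, had 137.6 and 165.6 in mTert, against 137.8 and 206.3 in control, all absent. Rrp9, which joins a small nucleolar particle of the processome, had 211.0 and 104.7 in mTert, against 256.8 and 119.9 in control, all absent.

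Several members were read by more than 1 probe set, which allowed a check within the gene. Of 19 members with several tested probe sets, 9 had probe sets on both sides of 0, counting Ddx21, whose brightest probe set stood at 0.00. Ncl had 4, at -0.19, -0.03, -0.02 and 0.73. The last was dim, with 259.3 and 160.7 in mTert, against 67.6 and 223.9 in control, and 1 low control set its value. Averaged over its probe sets, Ncl stood at 0.12 and not at -0.19. The only member probe set with an unadjusted limma p under 0.05, at 0.0467, was a second one of Tcof1, at -0.68 (SE 0.27). It had 111.7 and 78.2 in mTert, against 137.3 and 163.5 in control, opposite in sign to the 0.22 of the brighter Tcof1 probe set. Polr1a stood at 0.18 by its brightest and at -0.46 by its other tested probe set. Ddx10 had -0.03 by its brightest probe set and -0.35 by a second one, with 232.8 and 264.3 in mTert, against 328.6 and 306.4 in control. Over the 55 tested member probe sets 27 were lower and 28 higher by sign.

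**Figure D4:**
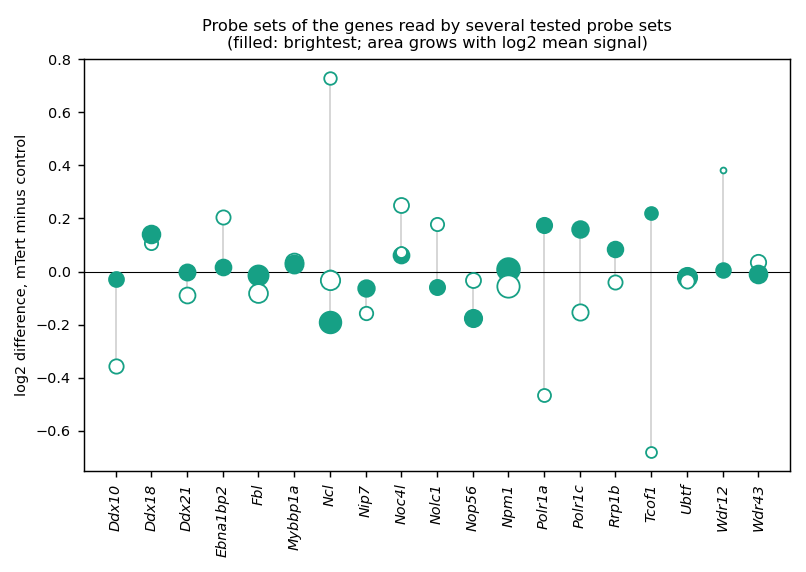
Log2 difference, mTert minus control, of each tested probe set of the 19 members read by several. Filled circles are the brightest probe set of a gene, open circles the others, and the area grows with the log2 mean signal; most of the largest departures from 0, such as 0.73 for Ncl and -0.68 for Tcof1, belong to dim probe sets.

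The rest of the pathway also lay near 0. Of other genes of ribosome biogenesis, 87 were measured, with a median log2 difference of -0.015. By sign 49 were lower and 38 higher in mTert, and limma called 0. The mTert signals were both under the control signals in 10 of the 87, or 11.5%, and both above in 7, or 8.05%, beside 11.7% and 13.8% of all genes. As low as Myc was 1 of the 87, beside 71 of all 7387 genes. This was Riok2, a kinase of small-subunit maturation, at -0.69 (SE 0.45). It was dim, with 44.7 and 111.1 in mTert, against 106.2 and 122.0 in control, and mTert 1 alone was low. Heatr1, a large processome protein, had the smallest p among them, at -0.27 (SE 0.14), with 647.1 and 552.0 in mTert, against 708.6 and 728.5 in control.

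Genes known to respond to Myc outside the nucleolus were set beside the members. Among the 35 measured, the median was -0.004, 18 were lower and 17 higher by sign, and 0 were called. The mTert signals were both under the controls in 4, or 11.4%, and both above in 6, or 17.1%, beside 11.7% and 13.8% of all genes. The smallest p belonged to Shmt2, a mitochondrial enzyme of serine and glycine metabolism, which had 1269.1 and 1200.2 in mTert, against 1027.4 and 1009.9 in control, or 0.28 (SE 0.11). Eif4e, the cap-binding translation factor, followed on the other side, at -0.24 (SE 0.12). Max, the obligate partner of Myc, had 216.1 and 337.9 in mTert, against 375.8 and 278.7 in control, with overlap. Thus on these arrays neither the nucleolar members nor this list showed a median near the -0.52 of Myc. The arrays do not give how far targets would move with a Myc difference of this size. Whether they moved by less than Myc was not tested. The level of Myc protein was not measured, and 4 arrays are too few for a correlation of members with Myc across samples.

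**Figure D5:**
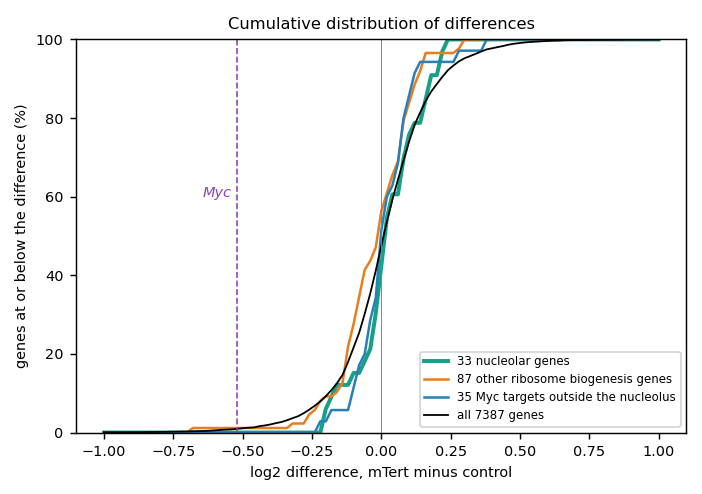
Share of genes, in percent, at or below each log2 difference of mTert minus control, for the 33 nucleolar genes, 87 other genes of ribosome biogenesis, 35 Myc targets outside the nucleolus and all 7387 genes. The dashed line is Myc at -0.52; the 4 curves cross 50% within 0.02 of 0, and the nucleolar curve starts to the right of -0.25.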

How the data were processed

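RNA of 4 fibroblast samples was hybridised to 1 array each, and group and number were taken from the sample titles. Per the file headers, each array's table holds an intensity for every probe set, linear and not logged, and a present, marginal or absent call. A detection p-value behind that call was deposited with it. The sources used here do not give the software.

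Signals were scaled to a common mean, without control probe sets and without 2% of the others at each end, and logged to base 2, after the 1 signal of 0 was replaced by its array's lowest present signal. Probe sets present on at least 2 of 4 arrays were tested, 12396 in all, with symbols from GEO's platform annotation (20393 with 1 symbol, 691 with several). Limma 3.58.1 in R 4.3.3 compared mTert with control by lmFit and eBayes with trended variance (4.13 prior degrees of freedom) and no replicate term. Benjamini-Hochberg adjustment ran over every tested probe set. The fit was tested on simulated data. The brightest tested probe set stood for a gene. All members are named; of other lists only those with the smallest p, Max, and Riok2, chosen after its value was seen. The members and lists were chosen with earlier results of these data known. The number of arrays limits the precision. Alternatives changed the scaling, the filter on calls, an offset of 50, the prior, the replicate term, the arrays used and the probe set per gene.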

Additional observations from a re-analysis of the deposited data

How the results depend on the processing

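The call of 0 member probe sets and 0 member genes held under all alternatives run on them. The median log2 difference of the member genes was -0.005 after quantile normalization, 0.003 with no filter on calls and 0.014 with the mean of a gene's probe sets. It ranged from 0.019 to 0.034 with 1 array left out. Members with both mTert signals above both controls numbered 2 among probe sets present on all arrays. Members with both below numbered 0 with the mean of probe sets. With 1 array left out, 1 signal faces 2, and the counts ranged from 6 to 9 below and from 9 to 14 above, by construction higher. The share of all genes was not counted under these alternatives, so these counts have no background beside them. With 1 array left out, the median of the other genes of ribosome biogenesis ranged from -0.041 to -0.013 and that of Myc targets outside the nucleolus from 0.003 to 0.012. With no filter on calls the list of other biogenesis genes was at -0.001. The median of the Myc targets was 0.007 after quantile normalization, 0.011 with no filter and -0.017 with the mean of probe sets. Myc stayed lower in sign throughout, from -0.677 without control 2 to -0.362 without control 1. In 4 arrays the replicate number marks no stated pairing. The deviations of same-numbered arrays from their group means correlated at 0.373 across probe sets. With the number as a replicate block, 18 probe sets passed in limma, 0 of them members, where 0 passed without. Tert was among the 18, at a limma adjusted p of 9.62e-08. Myc then stood at -0.519 with an adjusted p of 0.617, and the members' median was 0.009. Apart from the block, the causes of these changes were not tested. Signals near background limit Nop2, Ppan, Rrp9 and Polr1e.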
